A study of Homo sapiens with 6 samples.

Results

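The claudins are the membrane proteins that build tight junctions, the seals between neighbouring epithelial cells, and 10 of them were examined in OVSAYO, a cell line from an ovarian clear cell carcinoma. They were taken as every probe whose only gene symbol on the platform was CLDN1, CLDN2, CLDN3, CLDN4, CLDN6, CLDN7, CLDN10, CLDN12, CLDN15 or CLDN16, which gave 14 of the 48803 probes on the array. Of these, 9 probes, covering 8 of the 10 genes, passed the detection filter, against 21928 probes in all. CLDN16 was included because its signal was high and because it was shifted in the comparison reported here, so its values are a description and carry no test.

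The study used single-colour expression arrays, 1 per culture, and total RNA taken 48 hours after transfection. The 3 control cultures received 66 nM of a negative control hairpin inhibitor built on C. elegans microRNAs. The 3 inhibitor cultures received hairpin inhibitors of miR-30a, at 44 nM, together with those of miR-30d, at 22 nM. The study's design text calls the agents mimics, and the sample labels, which name inhibitors, were followed. All 6 cultures were of the same line, grown in the same medium and transfected with the same lipid reagent. The comparison asks which mRNAs differ after inhibition of miR-30, whose level the study describes as raised in cultured clear cell carcinomas, and the microRNA itself was not measured by these arrays. Each array reads a whole culture, so a change in every cell and a change in the share of expressing cells cannot be told apart. The labels call the samples biological replicates without saying what separated them, so the spread given here is that between these samples and may be partly technical.

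Claudins span the membrane several times, and their extracellular loops meet those of the next cell. Some, such as CLDN1, CLDN3 and CLDN4, mainly close the paracellular space, and others, such as CLDN2, CLDN10, CLDN15 and CLDN16, form selective pores for ions. CLDN16, once named paracellin, is known from the thick ascending limb of the kidney, where it acts with CLDN19 in the reabsorption of magnesium and calcium, and its loss causes a hereditary wasting of magnesium. CLDN3, CLDN4 and CLDN7 are known for high expression in ovarian carcinomas.

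The miR-30 family is defined by a common seed, the stretch by which a microRNA pairs with its targets. The mature sequences of miR-30a, at which an inhibitor was aimed, and of its relatives miR-30c and miR-30e are shown from RefSeq (GRCh38.p14) to make that stretch visible. Capitals mark bases 2 to 8, counted from the 5′ end. The stretch was identical in all 3 sequences, which differed only downstream of it.
hsa-miR-30a-5p: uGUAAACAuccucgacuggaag
hsa-miR-30c-5p: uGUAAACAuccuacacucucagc
hsa-miR-30e-5p: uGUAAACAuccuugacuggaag

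In the RefSeq annotation CLDN16 and CLDN1 are neighbours on chromosome 3, and CLDN1 lies inside the span of CLDN16 on the opposite strand. CLDN16 has 2 annotated starts. The 250 bases before each are shown with those of CLDN1, the member that lies inside the span of CLDN16. Capitals mark GGGCGG or its reverse complement CCGCCC, the GC box. Neither CACCTG, the E-box form bound by the SNAI and ZEB repressors, nor TATAAA, the TATA box, was found on either strand. The regions are, in GRCh38.p14, chr3:190290111-190290360 (plus strand) for the first start of CLDN16, chr3:190387913-190388162 (plus strand) for the second and chr3:190322447-190322696 (minus strand) for CLDN1.
CLDN16 first start: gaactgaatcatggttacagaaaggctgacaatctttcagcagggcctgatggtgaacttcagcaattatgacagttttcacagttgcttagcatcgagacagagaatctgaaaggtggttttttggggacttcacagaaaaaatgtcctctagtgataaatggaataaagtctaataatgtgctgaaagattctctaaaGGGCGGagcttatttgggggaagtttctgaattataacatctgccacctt
CLDN16 second start: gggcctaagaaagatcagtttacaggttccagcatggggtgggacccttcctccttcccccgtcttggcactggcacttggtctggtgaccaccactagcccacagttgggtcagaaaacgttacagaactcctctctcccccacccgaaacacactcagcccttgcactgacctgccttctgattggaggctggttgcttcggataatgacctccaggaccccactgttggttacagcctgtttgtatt
CLDN1: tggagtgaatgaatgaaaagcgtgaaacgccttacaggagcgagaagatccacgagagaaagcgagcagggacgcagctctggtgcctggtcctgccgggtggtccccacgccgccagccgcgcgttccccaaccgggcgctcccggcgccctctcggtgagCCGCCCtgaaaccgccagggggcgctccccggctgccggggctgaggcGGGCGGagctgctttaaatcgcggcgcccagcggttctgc

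The windows of CLDN16 and CLDN1 differed in base composition. The GC content was 40.0% and 54.8% before the starts of CLDN16 and 68.8% before CLDN1, against a median of 58.0% over 35116 promoter windows of the same length. CpG dinucleotides numbered 2 and 4 for CLDN16 and 28 for CLDN1, against a median of 11. Over the 14 windows of the 10 claudins, GGGCGG on either strand was found in 8, against 42.6% of all windows. CACCTG was found in 1 of the 14, that before the second start of CLDN7, with 4 matches there, against 17.5% of all windows. TATAAA was found in 0 of the 14, against 10.7% of all windows. Whether any window overlaps the target of a probe was not checked, and these matches describe letters only.

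Markers of the labelled cell type were detected. Of 12 markers of clear cell carcinoma and epithelium, 11 had a detected probe, among them the transcription factor PAX8, the cadherin CDH1, EPCAM and the keratins KRT7, KRT8, KRT18 and KRT19. Markers of the kidney thick ascending limb, where CLDN16 is best known, were mostly undetected. CASR, KCNJ1 and SLC12A1 were detected on 0 of 6 arrays, and CLDN19 was close to background at a normalized log2 level of 4.70 in both groups. CLDN14 was at 6.99 in the controls and 7.09 in the inhibitor group by its only kept probe. The other probes of CLDN14 were detected on 0 of 6 arrays, with signals from 33.3 to 40.4 and from 34.8 to 42.3. PTPRC, which marks leukocytes, and VWF, which marks endothelium, were detected on 0 of 6 arrays. Of 7 fibroblast markers 3 had a kept probe, all with positive differences up to 0.13, of 7 leukocyte markers 3 did, 1 higher and 2 lower, and of 6 endothelial markers 2 did, TEK at 0.04 and PECAM1 at −0.32. PECAM1 (limma adjusted p 0.384) had groups that did not overlap, as did the clear cell marker GLRX at −0.44 (limma adjusted p 0.397) and the leukocyte marker CD14 at −0.12 (limma adjusted p 0.553), and their part in the claudin values was not tested. Arrays differed within the groups. On a first principal component with 42.1% of the variance, control replicate 2 (−15.7) and inhibitor replicate 3 (−9.11) lay furthest to one side, inhibitor replicates 1 (17.5) and 2 (13.2) to the other, and control replicates 1 (−4.12) and 3 (−1.67) between.

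CLDN16 was brighter on every inhibitor array than on any control array. The deposited signal of its brightest probe, ILMN_1707670, was 1918, 1935 and 2111 on control replicates 1, 2 and 3, and 3127, 2739 and 2820 on inhibitor replicates 1, 2 and 3. The standard error over the 44 to 61 beads of this probe was at most 2.58% of the signal on any array, which is the error within an array and not that between cultures. Signals as deposited also carry the brightness of each array, and the mean signal of all probes ran from 222.6 to 239.9 on the control arrays and from 240.3 to 258.5 on the inhibitor arrays.

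After background correction and quantile normalization on the log2 scale the separation of CLDN16 remained. The normalized log2 level was 11.07, 10.92 and 11.07 on the controls, with a mean of 11.02 ± 0.09 (SD, n = 3). It was 11.51, 11.39 and 11.34 on the inhibitor arrays, with a mean of 11.41 ± 0.09 (SD, n = 3). The lowest inhibitor value lay 0.27 above the highest control value. The difference of the means was 0.39 ± 0.08 (SE), a fold of 1.31. CLDN16 was chosen for this shift, which is given as a description.

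**Figure D1:**
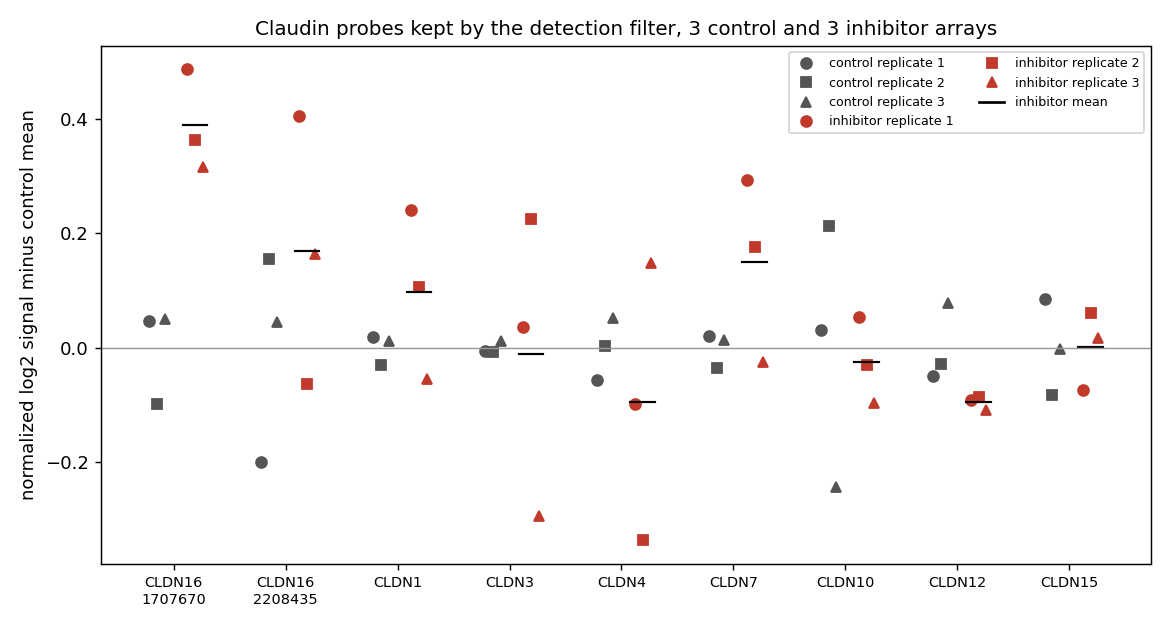
Normalized log2 signal of each of the 9 kept claudin probes minus its control mean, with 1 symbol per array, grey for control and red for inhibitor, and a black line at the inhibitor mean. ILMN_1707670 of CLDN16 has all 3 inhibitor arrays above the controls, with a mean difference of 0.39, while in CLDN1, CLDN3 and CLDN7 inhibitor replicate 3 lies below the controls or among them.

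Across all 21928 kept probes, limma called 0 (0%) at an adjusted p under 0.05, with a lowest adjusted p of 0.440, and 2199 (10.0%) had an unadjusted p under 0.05, 1060 of them higher and 1139 lower (4099 and 248 with median centring). The 2 groups did not overlap in 3404 probes (15.5%), of which 1842 (8.40% of all) were higher with the inhibitor and 1562 (7.12%) lower. Among the 9 kept claudin probes 2 had groups that did not overlap, ILMN_1707670 of CLDN16 and the probe of CLDN12. As CLDN16 was chosen in this contrast, nothing is read from that count. At the gene level, with the brightest kept probe for each gene, the 8 measured claudins had 4 positive and 4 negative differences and a median of −0.0050, against 0.0062 over 12183 genes.

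The further probes of CLDN16 gave no second clear measurement. ILMN_2208435, assigned to the same transcript accession as the bright probe, had signals of 49.5, 58.0 and 53.4 on the controls and 63.6, 47.9 and 54.5 on the inhibitor arrays. These signals are close to background, and the probe was detected on 2 of 3 control and 3 of 3 inhibitor arrays. The groups overlapped, and the difference was 0.17 ± 0.13 (SE) on the log2 scale, or 0.09 with no background correction, and it ran from 0.05 without inhibitor replicate 1 and 0.07 without control replicate 1 to 0.28 without inhibitor replicate 2. ILMN_1864727, assigned to an expressed sequence tag, was detected on 0 of 6 arrays, with signals from 40.4 to 48.7. What each probe hybridises to was not checked, since the files hold no probe sequences.

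Of the claudins that close the paracellular space, CLDN1, the barrier claudin of the epidermis, was detected on all arrays. Its normalized log2 level was 12.91, 12.86 and 12.91 on the controls and 13.14, 13.00 and 12.84 on the inhibitor arrays. Inhibitor replicates 1 and 2 lay above the controls and inhibitor replicate 3 below them. The difference was 0.10 ± 0.09 (SE), and 0.17 without inhibitor replicate 3 or 0.03 without inhibitor replicate 1.

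CLDN3 and CLDN4, neighbouring genes on chromosome 7, are known as receptors of a Clostridium perfringens enterotoxin. CLDN3 had a normalized log2 level of 10.21, 10.21 and 10.23 on the controls and 10.25, 10.44 and 9.92 on the inhibitor arrays. The control values were almost equal, with an SD of 0.01, and the inhibitor values spread to both sides of them, with an SD of 0.26. Its difference was −0.01 ± 0.12 (SE), and it turned to 0.13 without inhibitor replicate 3 and fell to −0.13 without inhibitor replicate 2. CLDN4 was close to background, with signals from 49.0 to 62.2, though detected on all 6 arrays. Its normalized log2 level was 4.98, 5.04 and 5.09 on the controls and 4.94, 4.70 and 5.19 on the inhibitor arrays, so that the groups overlapped, and the difference of −0.10 ± 0.11 (SE) turned to 0.02 without inhibitor replicate 2 and was −0.22 without inhibitor replicate 3.

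CLDN7, which binds the adhesion molecule EPCAM, followed the order of CLDN1. Its normalized log2 level was 11.85, 11.80 and 11.85 on the controls and 12.13, 12.01 and 11.81 on the inhibitor arrays. Inhibitor replicates 1 and 2 again lay above the controls, and inhibitor replicate 3 lay among them. The difference was 0.15 ± 0.09 (SE), and ran from 0.08 without inhibitor replicate 1 to 0.24 without inhibitor replicate 3. EPCAM itself had 0.09 ± 0.07 (SE; limma adjusted p 0.656), with overlapping groups, and its other kept probe had 0.24.

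**Figure D2:**
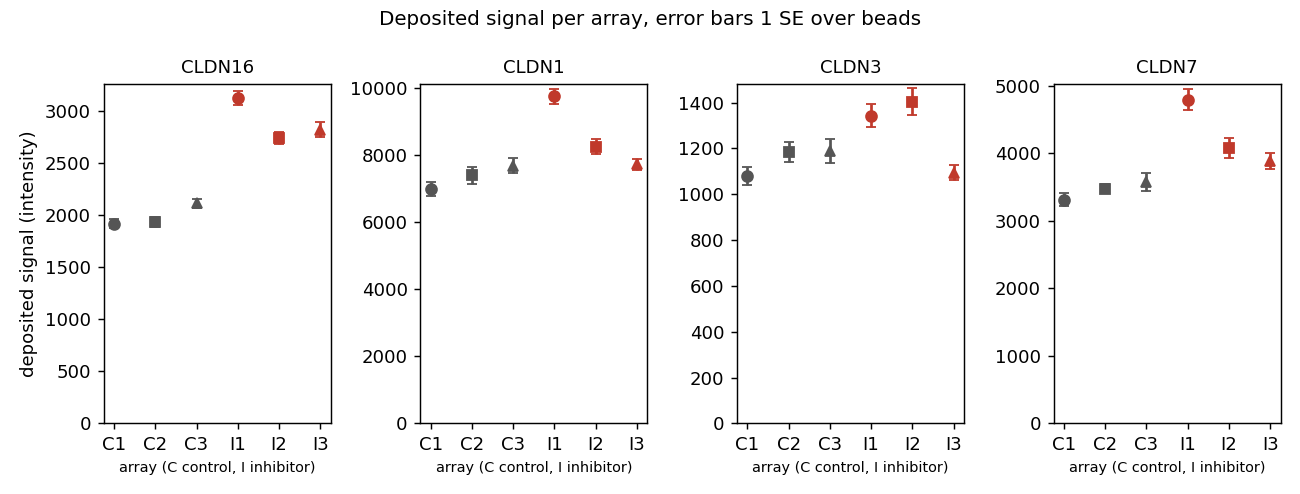
Deposited signal (intensity, linear axis from 0) of the CLDN16 probe ILMN_1707670 and of CLDN1, CLDN3 and CLDN7 on control arrays C1 to C3 (grey) and inhibitor arrays I1 to I3 (red), with bars of 1 SE over the beads of each array. CLDN16 runs from 1918 to 2111 on the controls and from 2739 to 3127 with the inhibitor, whereas CLDN3 on inhibitor replicate 3, at 1095, lies within the control range of 1081 to 1188.

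Among the pore-forming claudins other than CLDN16, CLDN15, a sodium channel claudin of the intestine, was detected on all arrays. Its normalized log2 level was 8.57, 8.41 and 8.49 on the controls and 8.41, 8.55 and 8.50 on the inhibitor arrays. The groups overlapped fully, and the difference was 0.0011 ± 0.08 (SE), from −0.04 without control replicate 2 to 0.04 without control replicate 1, and 0.14 under median centring, or 0.04 relative to the median of all probes.

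CLDN10, a claudin of the kidney and sweat gland that exists in cation- and anion-selective forms, was at the limit of detection. Of its 3 probes 1 was kept, with a detection score above 0.95 on 4 of 6 arrays, the nearest of them at 0.955. Its normalized log2 level was 4.63, 4.81 and 4.35 on the controls and 4.65, 4.57 and 4.50 on the inhibitor arrays, with a difference of −0.02 ± 0.11 (SE), which was −0.15 without control replicate 3, −0.06 without inhibitor replicate 1, 0.08 without control replicate 2 and 0.01 without inhibitor replicate 3. The other probes of CLDN10, 1 of them assigned to another transcript accession, were detected on 0 of 6 arrays. CLDN2, a cation pore of leaky epithelia, and CLDN6, a claudin of embryonic tissues that also marks some tumours, were detected on 0 of 6 arrays, with signals from 39.9 to 45.7 and from 38.6 to 46.9. CLDN2 and CLDN6 were therefore not detectable in these cells by these probes, and no difference is given for them.

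CLDN12, a widely expressed claudin, was the only kept member whose 3 inhibitor values all lay below the controls. Its normalized log2 level was 8.96, 8.98 and 9.09 on the controls and 8.92, 8.92 and 8.90 on the inhibitor arrays. The gap between the groups was 0.04, and the difference was −0.10 ± 0.07 (SE), or −0.06 without control replicate 3, against 7.12% of all kept probes with groups apart in that direction. When arrays were instead centred on their medians the groups of CLDN12 overlapped and its difference turned to 0.05, or −0.06 relative to the median of all probes.

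The arrays that stood apart moved several claudins at once. Relative to the mean over the 6 arrays, inhibitor replicate 3 was at −0.10 for CLDN1, −0.29 for CLDN3 and −0.10 for CLDN7, but at 0.20 for CLDN4. On inhibitor replicate 1 the same quantity was 0.19 for CLDN1, 0.04 for CLDN3 and 0.22 for CLDN7. Control replicate 2 had the lowest control value of CLDN16, CLDN1 and CLDN7, and the lowest inhibitor value of each lay on inhibitor replicate 3. These are also the arrays that lay lowest of their groups on the first principal component, and their part in the claudin values was not tested beyond leaving them out. Without control replicate 2 and inhibitor replicate 3, CLDN16 had a difference of 0.38, CLDN7 0.22, CLDN1 0.16, CLDN3 0.13 and CLDN12 −0.10. In 6 of the 9 claudin probes the SD was higher among inhibitor arrays than among controls, as in 58.5% of all kept probes.

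**Figure D3:**
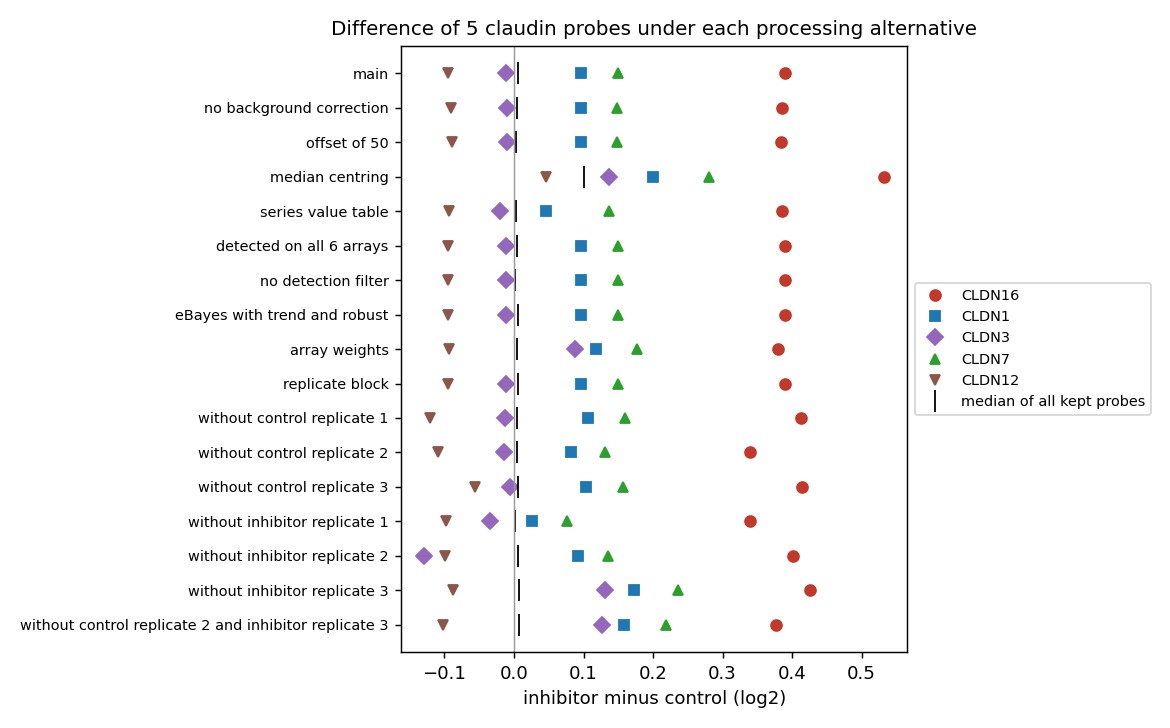
Inhibitor minus control difference (log2) of CLDN16 (ILMN_1707670), CLDN1, CLDN3, CLDN7 and CLDN12 under the main processing and 16 alternatives, with a black tick at the median of all kept probes. CLDN16, chosen for its shift, runs from 0.34 to 0.53, and CLDN3 runs from −0.13 to 0.14.

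Genes with array patterns close to that of CLDN16 were picked by the mean absolute distance, over the 6 arrays, between their deviations from their own mean and those of CLDN16. The nearest 5 of the 12183 genes were SHLD1 (0.02), a subunit of the shieldin complex of DNA repair, the ubiquitin ligase gene MID2 (0.03), the transcriptional repressor PRDM1 (0.03), the uroplakin gene UPK3B (0.03) and the cullin gene CUL7 (0.04), where each value is that log2 distance. By construction the measure finds genes of a similar difference, and theirs ran from 0.33 for CUL7 to 0.40 for SHLD1. Other kept probes of these genes often differed from the matched one. The other probe of PRDM1 had −0.11, the other kept probes of MID2 had −0.02 and −0.15, and those of UPK3B had 0.55, 0.06 and −0.15. Detection of SHLD1 was limited to 1 of the 3 controls, and of CUL7 to 2 of them. SHLD1, MID2 and CUL7 were close to background, with normalized log2 levels from 4.46 to 5.02, from 4.67 to 5.26 and from 4.41 to 4.98. Of the other claudins CLDN7 was the nearest to CLDN16 at 0.12 and CLDN1 came next at 0.15, and the other 5 measured lay between 0.19 and 0.27.

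Genes beside CLDN16 were read to see whether the locus shared its difference. P3H2, a collagen prolyl hydroxylase gene and the nearest protein-coding gene on one side, had a normalized log2 level of 10.14, 10.23 and 10.10 on the controls and 10.35, 10.36 and 10.43 on the inhibitor arrays. All inhibitor values lay above the controls, and the difference of 0.22 ± 0.07 (SE) did not pass the test (limma adjusted p 0.401). On the other side TMEM207 had 0.09 ± 0.15 (SE; limma adjusted p 0.844). The interleukin receptor subunit gene IL1RAP, beyond TMEM207, had −0.17 ± 0.09 (SE; limma adjusted p 0.523), and its other kept probe had −0.18. Together with CLDN1 at 0.10, the locus thus held genes with differences of either sign.

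Of 18 further claudins and claudin-like genes, 9 were measured, 6 with a positive and 3 with a negative difference, and a median of 0.02. None (0) of the 9 passed with limma or had groups that did not overlap, where 16.3% of all genes had such groups, and 0 had an unadjusted p under 0.05, which 10.8% of all genes had. The values ran from −0.11 for PERP, a desmosomal and claudin-related gene, to 0.12 for CLDND1. CLDN14, which blocks the CLDN16 pore in the kidney, had 0.10 ± 0.09 (SE) by its only kept probe, its other probes being undetected. CLDN9 had −0.07 ± 0.09, and CLDN19, the partner of CLDN16, had 0.00015 ± 0.08. CLDN5, CLDN8, CLDN20, CLDN22 and CLDN25 were detected on 0 of 6 arrays.

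Of 16 genes of the membrane proteins that accompany claudins 10 were measured, 6 higher and 4 lower. Their median was 0.01, and 0 passed with limma (lowest adjusted p 0.435), while 1 had an unadjusted p under 0.05 (10.8% of all genes). That gene was CRB3, an apical polarity protein, at 0.22 ± 0.09 (SE), with overlapping groups. Its other kept probes had 0.16 and 0.01. Median centring gave 8 of the list higher and 2 lower, with groups that did not overlap in 4, all higher. Over all 12183 genes it gave 9753 higher and 2430 lower, with groups apart upward in 3532. The 2 named probes of OCLN, the gene of occludin, were detected on 0 of 6 arrays, and F11R had no named probe here. MARVELD2, the tricellulin gene, had −0.0008, while its other kept probe, named after its value was seen, had 0.38 with groups that did not overlap. That probe was close to background, with a mean level of 4.54 in the controls and 4.92 in the inhibitor group. The lowest level detected on the control arrays was 4.57. LSR, a receptor of tricellular junctions also named after its values were seen, had 0.0047 by its brightest probe and −0.14 and −0.24 by its other kept probes. The last was detected on 3 of 3 control arrays and 0 of 3 inhibitor arrays. It thus passed the filter only through the group where it was higher and had to differ, so nothing is read from its groups, which did not overlap.

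The cytoplasmic plaque that holds claudins had 17 of 27 listed genes measured, 12 higher and 5 lower, with a median of 0.03. With limma 0 passed (lowest adjusted p 0.409) and 1 had an unadjusted p under 0.05 (10.8% of all genes), and 3 of the 17 had groups that did not overlap, against 16.3% of all genes. PALS1, a polarity scaffold, had −0.21 ± 0.08 (SE). TJP1, the scaffold ZO-1 that binds the claudin tail, had −0.15 ± 0.07, while its other kept probe had 0.09, and median centring brought it to −0.0029, or −0.12 relative to the median of all genes. PARD6G, a polarity adaptor, had 0.13 ± 0.07, and its other kept probe had 0.18. Cingulin (CGN) had 0.05 ± 0.10. The apical scaffold gene PATJ, named after its values were seen, had 0.03 by its brightest probe and −0.45 by its other kept probe.

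Of 18 genes whose products bind, cleave or phosphorylate claudins or their partners, 15 were measured, 7 higher and 8 lower, with a median of −0.00025. With limma 0 passed (lowest adjusted p 0.408) and 1 had an unadjusted p under 0.05 (10.8% of all genes). Groups did not overlap in 1, EPHA2, against 16.3% of all genes. Under median centring 13 were higher and 2 lower, their median was 0.14, and the groups of 7, all higher, did not overlap. Over all 12183 genes that scaling gave 9753 higher and 2430 lower, a median of 0.12, and 3532 with groups apart upward. EPHA2, a receptor kinase that phosphorylates CLDN4, had −0.20 ± 0.07 (SE). SPINT2, an inhibitor of the membrane proteases that cleave EPCAM, had −0.19 ± 0.09, and the kinases WNK4 and WNK1, known for acting on claudins in the kidney, had 0.13 ± 0.08 and −0.05 ± 0.10, the latter 0.08 under median centring and 0.15 and 0.10 by the other kept probes of WNK1. Under median centring EPHA2 had −0.06, or −0.17 relative to the median of all genes.

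Among transcription factors of epithelial identity 14 of 22 were measured, 8 higher and 6 lower, with a median of 0.08. With limma 0 passed (lowest adjusted p 0.384), 2 had an unadjusted p under 0.05 (10.8% of all genes), and 2 had groups that did not overlap (16.3% of all genes). These were KLF5 and OVOL1, both with probes not detected on any control array and detected on 3 of 3 inhibitor arrays, so they passed the filter only through the group where they were higher and had to differ. Among the 10 genes detected on all 6 arrays 5 were higher and 5 lower, their median was 0.02, and 0 had an unadjusted p under 0.05 or groups that did not overlap. Without a detection filter the median was 0.01 over 19 genes. The measured means in the controls and the inhibitor group were 4.47 and 4.76 for KLF5 and 4.51 and 4.69 for OVOL1. Nothing is read from the differences or the groups of KLF5 and OVOL1. FOXA1 had 0.15 ± 0.07 (SE; limma adjusted p 0.498). SNAI1, SNAI2, ZEB1 and ZEB2, whose products repress claudin genes, were detected on 0 of 6 arrays. TWIST1, of the same list, was detected on 3 of 3 control and 3 of 3 inhibitor arrays. Its mean level was 5.95 in the controls and 5.92 in the inhibitor group, a difference of −0.03 ± 0.08 (SE).

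Genes of magnesium and calcium transport, the process in which CLDN16 acts in the kidney, were lower more often than higher. Of 26 listed 19 were measured, 6 higher and 13 lower. Their median was −0.05, and 0 passed with limma (lowest adjusted p 0.401), while 3 had an unadjusted p under 0.05 (10.8% of all genes). In 4 of the 19 all inhibitor values lay below the controls, against 7.40% of all genes, and in 0 above. The 4 with all inhibitor values below the controls in the main processing were NIPA1, SLC41A1, CNNM1 and PCBD1. The magnesium transporter genes NIPA1 and SLC41A1 had −0.23 ± 0.07 (SE) and −0.17 ± 0.07. CNNM1, of a family linked to magnesium efflux, had −0.24 ± 0.08, and PCBD1, a transcriptional cofactor, had −0.08 ± 0.07. The count depended on the scaling. Median centring, which moved the median of all genes to 0.12, gave 12 higher and 7 lower, with a list median of 0.06, and PCBD1 at 0.06 had then a positive sign. Over all 12183 genes that scaling gave 9753 higher and 2430 lower. Groups then lay apart in 0 of the list below the controls and in 4 above, against 151 and 3532 of all genes. TRPM6, CASR, TRPV5 and TRPV6 were detected on 0 of 6 arrays.

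**Figure D4:**
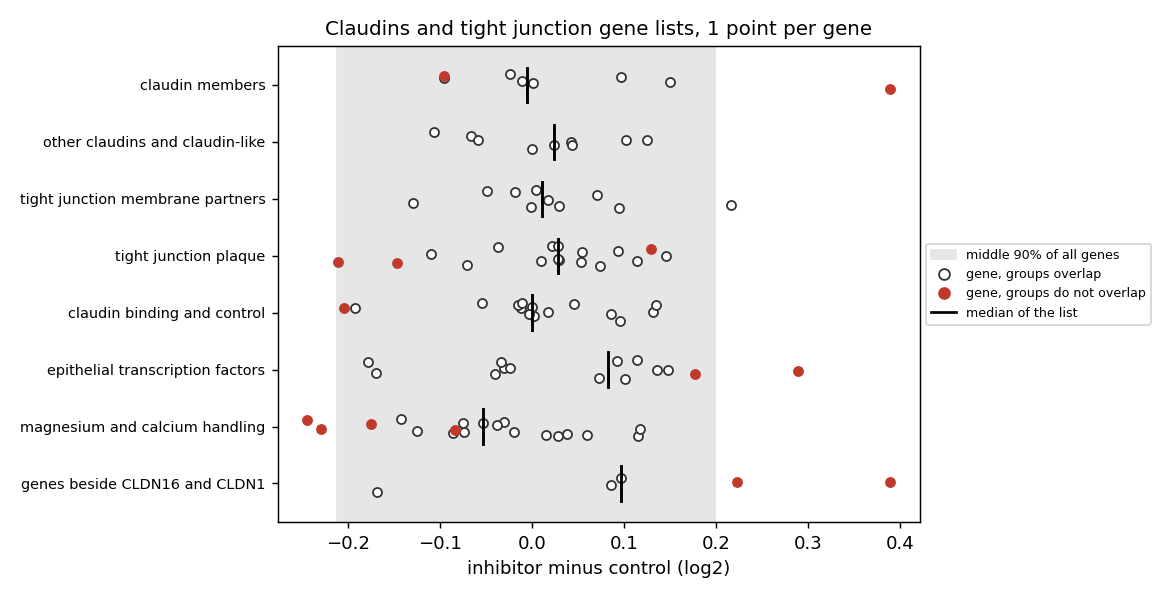
Inhibitor minus control difference (log2) of the 8 measured claudins and of 7 gene lists, 1 point per gene by its brightest kept probe, filled red where the 2 groups do not overlap, with a black line at the median of each list and a grey band from the 5th to the 95th percentile of all genes (−0.21 to 0.20). CLDN16 at 0.39 lies outside the band, and the other 7 measured claudins lie inside it.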

How the data were processed

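Total RNA of 6 OVSAYO cultures, 3 per group by the labels' descriptions, was measured on single-colour Illumina arrays. The deposited array tables give for each probe a mean bead signal, an intensity on a linear scale that is not normalized between arrays, with its bead SD and bead number, and a detection score, a fraction from 0 to 1 taken to be 1 minus a detection p. They came from BeadStudio, per the submitters' processing notes, which give neither its version nor a genome build. The deposited series table holds intensities that the authors had brought to the distribution of control replicate 1. Both tables were joined by the ranks of each probe on all 6 arrays, unique for all 48803 probes, and symbols came from the platform annotation (28098 probes with 1 symbol, 13 with several, 20692 with none).

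Signals were processed with neqc (limma 3.58.1, R 4.3.3; offset 16), which gives background-corrected, quantile-normalized log2 values of the deposited intensities. A probe was kept where its score exceeded 0.95 on 3 or more arrays. Differences were fitted over all of them with lmFit and eBayes, two-sided, with Benjamini-Hochberg adjustment and a threshold of 0.05, and again over genes, each by its brightest kept probe. The procedure was tested on simulated data. Members and lists were chosen with earlier results of these data known. All claudin probes are named, with fixed partner genes, and in each list up to 3 genes with the lowest p and those whose groups do not overlap, though not every gene so picked is printed. Replicate numbers were not used to pair the samples in the main fit. The deviations of equally numbered arrays, over probes, had correlations of 0.0890, −0.258 and −0.213. These cannot settle whether samples were handled in pairs, since unlike-numbered arrays were not compared and the labels do not say. Alternatives covered background correction, offset, normalization, the series table, detection filters, the variance prior, array weights, a replicate block, arrays left out and averaging each gene's probes. Arrays have no read depth, and their number limits the precision. Some listed items are not reported here. Promoter and microRNA sequences are RefSeq's (GRCh38.p14).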

Additional observations from a re-analysis of the deposited data

How the results depend on the processing

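Under 16 alternatives planned with earlier results of these data known, limma called 0 probes in every fit, with a lowest adjusted p between 0.0788 and 0.826. Unadjusted counts, 2199 in the main processing, were 1310, 1426 and 4251 without inhibitor replicates 1, 2 and 3, 3405 without control replicate 2 and inhibitor replicate 3 together, 3576 with array weights, 4105 without the detection filter and 4347 with median centring. The difference of CLDN16 kept its sign throughout. Leaving arrays out could not reverse it, since the groups did not overlap, and detection filters and the variance prior leave it unchanged. CLDN16 was chosen for its shift, so nothing is read from the kept sign. The difference was 0.53 with median centring, or 0.43 relative to the median of all probes. That scaling moved the median to 0.10 (0.12 over genes), and why the median moved was not tested. The difference of CLDN16 ran from 0.34 to 0.43 with 1 array left out. With the replicate block it was 0.39, which a block cannot change in balanced groups, and the block changed no call. Claudin probes with groups that do not overlap numbered 2, between 2 and 6 when arrays were dropped singly, with 6 reached without inhibitor replicate 3 (38.6% of all probes) and 3 without inhibitor replicate 2. Dropping both control replicate 2 and inhibitor replicate 3 gave 6 (48.4% of all probes). Single drops other than that of inhibitor replicate 3 left 22.1% to 27.1% of all probes apart. Fewer arrays are compared when any is dropped, and what moved these shares was not tested. Median centring gave 3 claudin probes with groups apart, all higher (CLDN16, CLDN7 and CLDN15), against 24.8% of all probes in that direction. It split the unadjusted calls into 4099 higher and 248 lower, against 1060 and 1139. Near-zero members changed sign under some alternatives, CLDN15 under 5, CLDN3 and CLDN10 under 4 each, and CLDN4 and CLDN12 under 1 each, and CLDN1 and CLDN7 under 0. Signal over background limits CLDN2, CLDN4, CLDN6, CLDN10 and the dimmer CLDN16 probes.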
